A study of Mus musculus with 36 samples.

Results

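H4K20me1, histone H4 carrying 1 methyl group on lysine 20, was mapped by chromatin immunoprecipitation and sequencing (ChIP-seq) in mouse hippocampus. The results below describe the 4 H4K20me1 peak lists, taken as the lists whose name carries that mark, out of 28 peak lists for 7 histone marks and 36 samples in all. They hold 1018903 of the 4381147 deposited peaks. The animals were female, 3 months old by the labels, and either double-transgenic for CK-p25 (labelled CKp25) or control littermates (labelled CK). In CK-p25 mice the CaMKII promoter drives inducible p25 in forebrain neurons. p25 is a shortened form of p35 that keeps the kinase Cdk5 active, and neurons are later lost. Tissue was taken 2 or 6 weeks after p25 induction, which gives the lists CK_2wk, CKp25_2wk, CK_6wk and CKp25_6wk. There was 1 list per group, and by the names of the lists each was called against a whole cell extract of its own group. The sources used here do not give whether animals were pooled for a list or how deeply each library was sequenced. No peak comparison below therefore has a replicate error or a test. The difference between both control lists (CK_6wk against CK_2wk) is printed beside most differences between genotypes. It is the measure used here of how far lists of 1 genotype lie apart, and it also holds any effect of time.

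H4K20me1 is laid down by Kmt5a (also called Set8 or PR-Set7), whose protein level rises and falls with the cell cycle. Kmt5b and Kmt5c add further methyl groups to it, and Phf8 removes it. The mark is known for long stretches over the bodies of transcribed genes and for its presence on the inactive X chromosome and on mitotic chromosomes, where condensin II binds it. In brain tissue, where most neurons no longer divide, it is chiefly studied as a mark of gene bodies.

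Each list held many short peaks packed into long stretches. The autosomal peaks numbered 265891 in CK_2wk, 234683 in CKp25_2wk, 254312 in CK_6wk and 251592 in CKp25_6wk. They covered 229 Mb, 206 Mb, 224 Mb and 221 Mb, or 9.25%, 8.33%, 9.07% and 8.93% of the autosomes. CKp25_2wk stood below the other 3 lists on both measures. At 2 weeks the number in CKp25 was 0.883 times that in CK and the covered length 0.901 times. At 6 weeks the same ratios were 0.989 and 0.985. Between the control lists they were 0.956 and 0.981, so the 6-week difference between genotypes was smaller than that between controls in number and of like size in length, and the 2-week difference was larger than both.

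A single peak was narrow in all lists. The median width was 458 bases in CK_2wk, 475 in CKp25_2wk, 468 in CK_6wk and 483 in CKp25_6wk, and the smallest was 220, 240, 220 and 230 bases. The smallest width thus differed between lists as deposited. The upper tail was long, with 22052, 19521, 22331 and 21846 peaks of at least 2 kb in the same order of lists. These made up 8.29 to 8.78% of the peaks and 38.7 to 40.5% of the covered length. The widest peak spanned 49212 bases in CK_2wk, 62742 in CKp25_2wk, 41380 in CK_6wk and 40732 in CKp25_6wk. Peaks of at least 10 kb numbered 860, 793, 857 and 668, so the count was lowest in CKp25_6wk.

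Strength was read from 2 values that the authors deposited with each peak, the fold enrichment and the -log10 of a p-value. Both rank and filter peaks within a list, and where they are set side by side between lists they also depend on sequencing depth, which is unknown here. The median fold enrichment was 2.96 in CK_2wk, 2.97 in CKp25_2wk, 3.01 in CK_6wk and 2.90 in CKp25_6wk. The median -log10 p was 6.39, 6.22, 6.87 and 7.03, and the maximum 85.4, 79.0, 109 and 103. Wider peaks were stronger in every list. In CK_2wk the median -log10 p was 5.56 for peaks under 1 kb, 19.9 for those of at least 2 kb and 28.5 for those of at least 5 kb, and the Spearman correlation of width and -log10 p over the 265891 peaks was 0.744. In the other lists that correlation lay between 0.736 and 0.747.

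The ratio between lists depended on how strong a peak had to be. With peaks of -log10 p of at least 5, CKp25_2wk held 160739 peaks against 188265 in CK_2wk, a ratio of 0.854, and at 10 and 20 the ratio was 0.765 and 0.729. The deficit of CKp25 at 2 weeks thus grew with strength. At 6 weeks the ratio was 0.956 at 5, 1.01 at 10 and 1.08 at 20, so its direction turned in number. In covered length it did not, with 0.969 at 10 and 0.977 at 20. The control lists drew apart in the other direction, from 1.00 at 5 to 1.10 at 10 and 1.28 at 20. Because a -log10 p grows with depth, counts past a set strength do not separate depth from the mark itself. Taking the same 50000 strongest peaks from each list, the covered length was 117 Mb in CK_2wk, 111 Mb in CKp25_2wk, 117 Mb in CK_6wk and 112 Mb in CKp25_6wk. At equal rank, CKp25 covered 0.950 times the length of CK at 2 weeks and 0.955 times at 6 weeks, against 1.00 between the control lists.

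**Figure D1:**
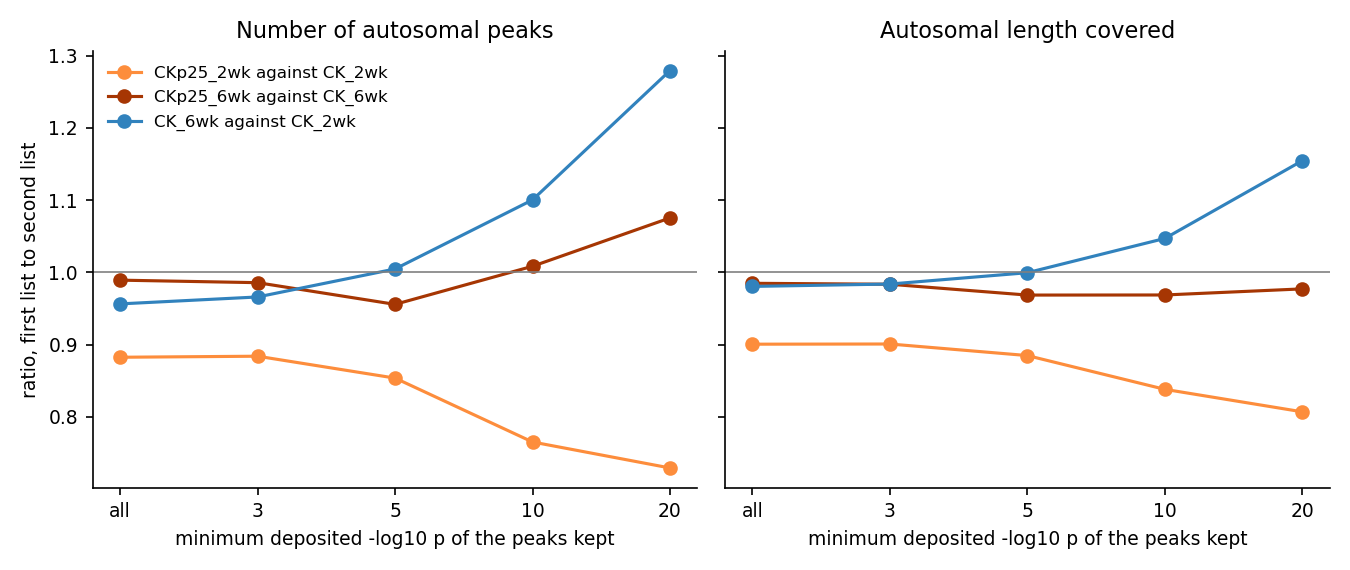
Ratio of the number of autosomal H4K20me1 peaks (left) and of the autosomal length they cover (right), first list to second list, against the minimum deposited -log10 p of the peaks kept. Each point is 1 list against 1 list and has no error bar. CKp25 to CK at 2 weeks fell from 0.883 to 0.729 in number, and the control lists rose from 0.956 to 1.28.

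Peaks lay in runs. The median gap between neighbouring autosomal peaks was 362 bases in CK_2wk, 400 in CKp25_2wk, 374 in CK_6wk and 386 in CKp25_6wk, while even spacing would have put a peak every 9298 to 10534 bases. Gaps of up to 3 kb made up 88.5 to 90.1% of all gaps. Peaks separated by at most 3 kb were therefore joined into domains, of which there were 26469 in CK_2wk, 27059 in CKp25_2wk, 25872 in CK_6wk and 26564 in CKp25_6wk. The median domain length was 3522, 3130, 3529 and 3428 bases, and 31.7, 34.0, 32.0 and 32.4% of domains held a single peak.

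Long domains carried about as much of the mark as all shorter ones together, and CKp25_2wk had the fewest of them. Domains of at least 50 kb numbered 1802 in CK_2wk, 1510 in CKp25_2wk, 1732 in CK_6wk and 1664 in CKp25_6wk, and held 51.1, 46.3, 50.4 and 48.8% of the covered length. Against the matched control, their number fell by 16.2% at 2 weeks and by 3.93% at 6 weeks in CKp25, and it fell by 3.88% from CK_2wk to CK_6wk. Domains of at least 100 kb numbered 478, 384, 463 and 459, a drop of 19.7% at 2 weeks and 0.864% at 6 weeks in CKp25, against 3.14% between controls. The total number of domains moved the other way, with 2.23% more in CKp25 at 2 weeks and 2.67% more at 6 weeks, but between controls it fell by 2.26%, a difference of like size. These counts use all peaks, of which CKp25_2wk held the fewest, and they depend on the number of peaks in a list. With the 50000 strongest peaks of each list, domains of at least 50 kb numbered 383, 346, 402 and 356 in the same order. Both CKp25 lists then lay below both controls in this class, and in it the fall was no longer confined to 2 weeks. Domains of at least 100 kb among the same peaks numbered 63, 51, 58 and 58. Their median length over all domains was 4222 bases in CK_2wk, 3891.5 in CKp25_2wk and 4350.5 in both 6-week lists. These 2 measures thus fell at 2 weeks only.

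**Figure D2:**
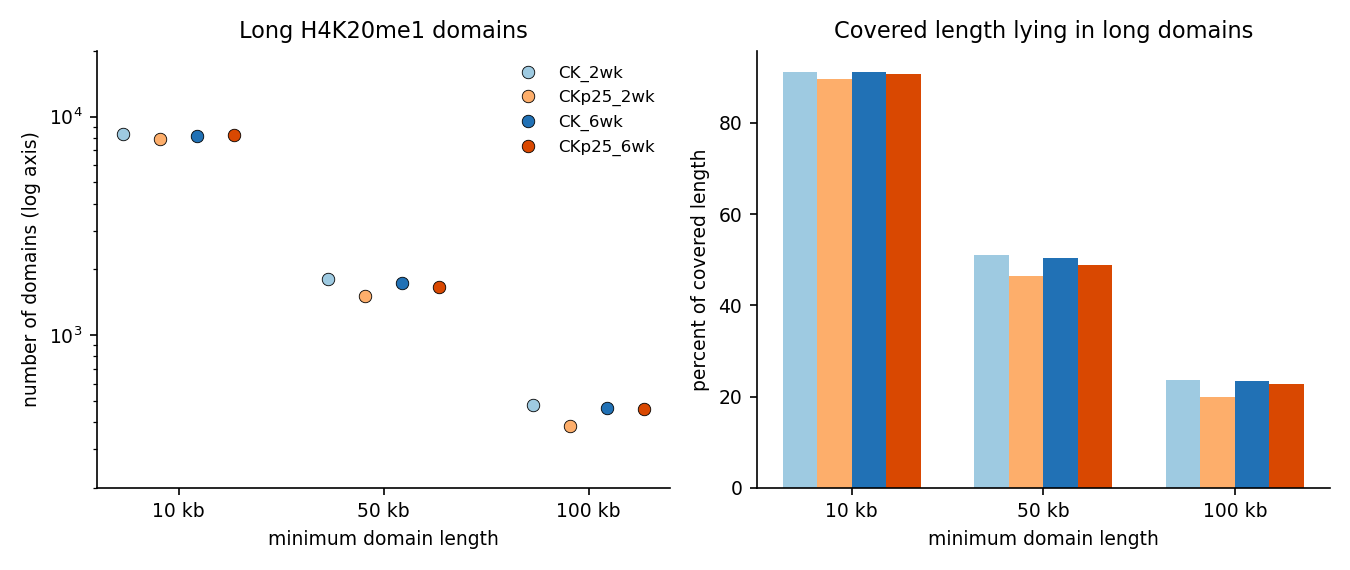
Number of H4K20me1 domains (peaks joined across gaps of at most 3 kb) of at least 10, 50 and 100 kb in the 4 lists, on a log axis (left), and the percent of the covered autosomal length that lies in them (right). CKp25_2wk has the fewest long domains, 1510 of at least 50 kb against 1664 to 1802 in the other lists. All peaks are used, and CKp25_2wk is also the list of fewest peaks.

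The long control domains were still marked in CKp25, and at 2 weeks many were broken into shorter ones. Of the 1802 domains of at least 50 kb in CK_2wk, none was without H4K20me1 in CKp25_2wk, and the median ratio of covered bases was 0.933, with 0.734 at the 10th and 1.00 at the 90th percentile. In CKp25_2wk 803 of them (44.6%) were split into separate domains. In CK_6wk 522 of the same domains (29.0%) were split and the median ratio was 0.984. Of the 1732 long domains of CK_6wk, 604 (34.9%) were split in CKp25_6wk and 418 (24.1%) in CK_2wk. These domains were chosen as long in CK, and the reverse view starts from those long in CKp25. Of 1510 long domains of CKp25_2wk, 237 (15.7%) were split in CK_2wk, and of 1664 of CKp25_6wk, 486 (29.2%) were split in CK_6wk. Splitting was thus far less one-sided at 6 than at 2 weeks. It also depends on how many peaks a list holds, and CKp25_2wk held the fewest. Splitting was not counted with the same number of peaks from each list, so list size and depth cannot be told apart from the mark here. Covered bases under 0.5 times those of the control were found in 32 long domains at 2 weeks and 55 at 6 weeks, and in none between the controls in either direction. A log2 ratio of at least 0.32 was found in 1 long domain at 2 weeks and 48 at 6 weeks, and again in none between controls. In the reverse view it was found in 76 and 83 long domains, and covered bases under 0.5 times in 3 and 40.

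The longest domains did not all behave alike. The longest of CK_2wk, at chr17:86560135-87058385 (mm9, as for every position here), held 320 peaks over 498251 bases. It was 78.5% covered in CK_2wk, 64.9% in CKp25_2wk, 78.4% in CK_6wk and 65.4% in CKp25_6wk, so both CKp25 lists lay below both controls. The domain at chr1:91352023-91793954, ranked next, was 90.3, 87.5, 89.7 and 91.4% covered in the same order, with no such split by genotype. The third, at chr13:45637931-46058383, was covered to 71.3, 59.8, 70.3 and 62.3%. These were chosen as long in CK_2wk. Among the longest domains of CKp25_6wk, that of rank 2, at chr6:99048668-99472387, was 55.4, 52.4, 55.6 and 64.1% covered, and thus highest in CKp25_6wk. The strongest peak of CK_2wk, with a -log10 p of 85.4 and a 13.2-fold enrichment, was 1 unbroken peak of 49212 bases at chr6:31104054-31153265 and was between 99.8 and 100% covered in every list. No gene is named at these places because no annotation of the mm9 build was used.

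All 19 autosomes carried the mark, at unequal density. In CK_2wk the covered share ran from 6.16% of chromosome 3 to 14.6% of chromosome 11, and these were the lowest and the highest autosome in all 4 lists. At 2 weeks all 19 autosomes had fewer peaks in CKp25, with a ratio between 0.826 on chromosome 16 and 0.933 on chromosome 11. At 6 weeks 13 had fewer and 6 had more, between 0.917 on chromosome 16 and 1.04 on chromosome 6. Between the control lists the ratio stayed between 0.947 and 0.971. The highest autosome exceeded the lowest by 1.13 times at 2 weeks and 1.14 times at 6 weeks, against 1.02 times between the controls, and chromosome 16 was the lowest at both times.

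The X chromosome was poor in H4K20me1 peaks in these female mice. It held 3436 peaks in CK_2wk, 2760 in CKp25_2wk, 3156 in CK_6wk and 3073 in CKp25_6wk, or 20.6, 16.6, 18.9 and 18.4 per Mb against 108, 94.9, 103 and 102 per Mb on the autosomes. The X to autosome ratio of peak density was thus 0.175 to 0.192. For H3K36me3 it was 0.230 to 0.252 and for H3K4me1 0.0813 to 0.0904, whereas H3K27me3 and H3K9me3 peaks were denser on the X, at 4.38 to 5.56 and 8.07 to 10.8 times the autosomal density. X peaks were also narrower than autosomal ones, with medians of 375 to 398 bases. The CKp25 to CK ratio of X peaks was 0.803 at 2 weeks and 0.974 at 6 weeks, against 0.919 between the controls.

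**Figure D3:**
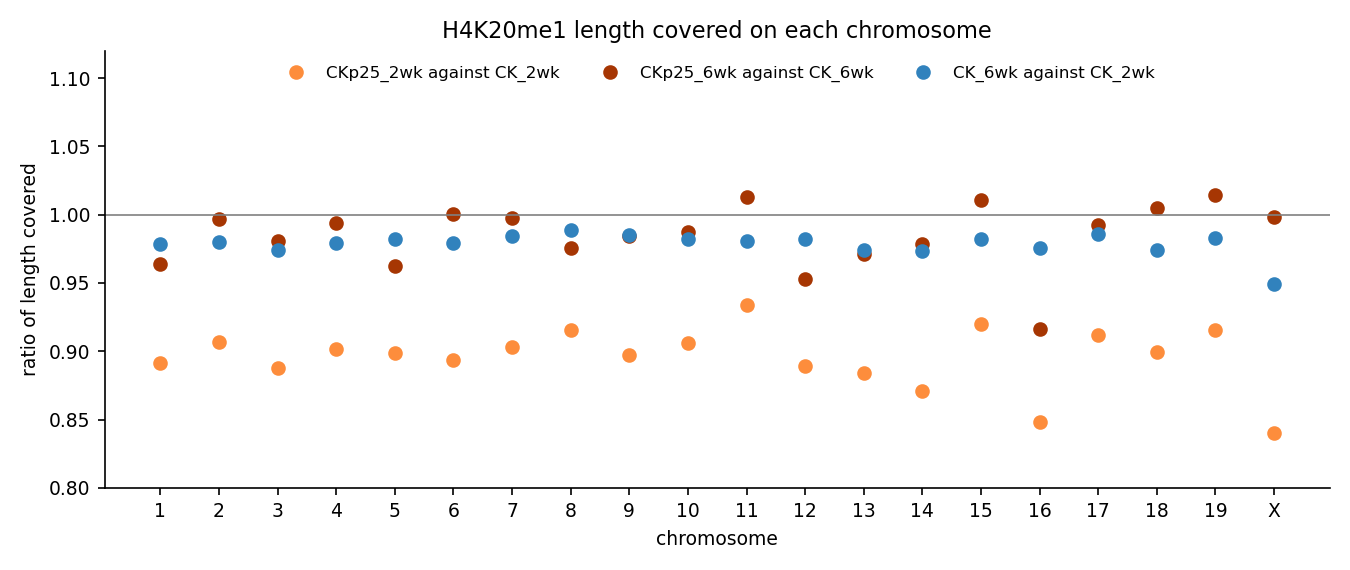
Ratio of the H4K20me1 length covered on each chromosome for CKp25 against CK at 2 and at 6 weeks and for CK_6wk against CK_2wk. Each point is 1 chromosome. Over the autosomes the ratio spans 0.848 to 0.934 at 2 weeks, 0.917 to 1.01 at 6 weeks and 0.973 to 0.989 between the control lists.

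The genotypes also differed in where along the autosomes the mark was found. The autosomes were cut into 1 Mb bins, and the 1573 of 2482 bins with a mean covered share of at least 2% over the 4 lists were compared. A pseudocount of 0.1 percentage points was added to each share. A bin was counted as higher or lower when its log2 ratio was at least 0.32 away from 0. At 2 weeks 10 bins (0.636%) were higher and 270 (17.2%) lower in CKp25. At 6 weeks 118 (7.5%) were higher and 174 (11.1%) lower. Between the control lists 0 bins were higher (0%) and 10 (0.636%) lower. The standard deviation of the log2 ratio over bins was 0.24 at 2 weeks, 0.39 at 6 weeks and 0.08 between the controls. The bin ratios thus spread more widely at 6 weeks, when total number and length hardly differed, than at 2 weeks. Base by base this order was not seen: the bases in both lists made up 64.4% of those in either list at 2 weeks, 65.6% at 6 weeks and 67.9% between the controls.

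These ratios still hold the difference in total length. With each share divided by that of its whole list, 25 bins were higher and 131 lower at 2 weeks, 132 higher and 163 lower at 6 weeks, and 0 higher and 10 lower between the controls. With the 50000 strongest peaks of each list, 48 of 1205 bins were higher and 140 lower at 2 weeks, 104 higher and 212 lower at 6 weeks, and 38 higher and 22 lower between the controls. Thinly covered bins moved most: in bins of 2 to 5% mean coverage the standard deviation was 0.37 at 2 weeks, 0.61 at 6 weeks and 0.12 between the controls, and in bins above 20% it was 0.10, 0.15 and 0.03. The order of the 3 comparisons was the same in each class of coverage.

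The 2 comparisons of genotype share no list, and their bin ratios moved together. Over the 1573 bins the Pearson correlation of the log2 ratio at 2 weeks with that at 6 weeks was 0.81 and the Spearman correlation 0.65. All bins of a comparison come from the same 2 lists and their extracts, and neighbouring bins are not independent, so these are descriptions. With the 50000 strongest peaks the values were 0.65 and 0.54 over 1205 bins. Relative to each list's total, 24 bins were higher at both times, which is 96.0% of those higher at 2 weeks and 18.2% of those at 6 weeks. Lower at both times were 98 bins, or 74.8% of those at 2 weeks and 60.1% of those at 6 weeks, and 4 bins went opposite ways.

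**Figure D4:**
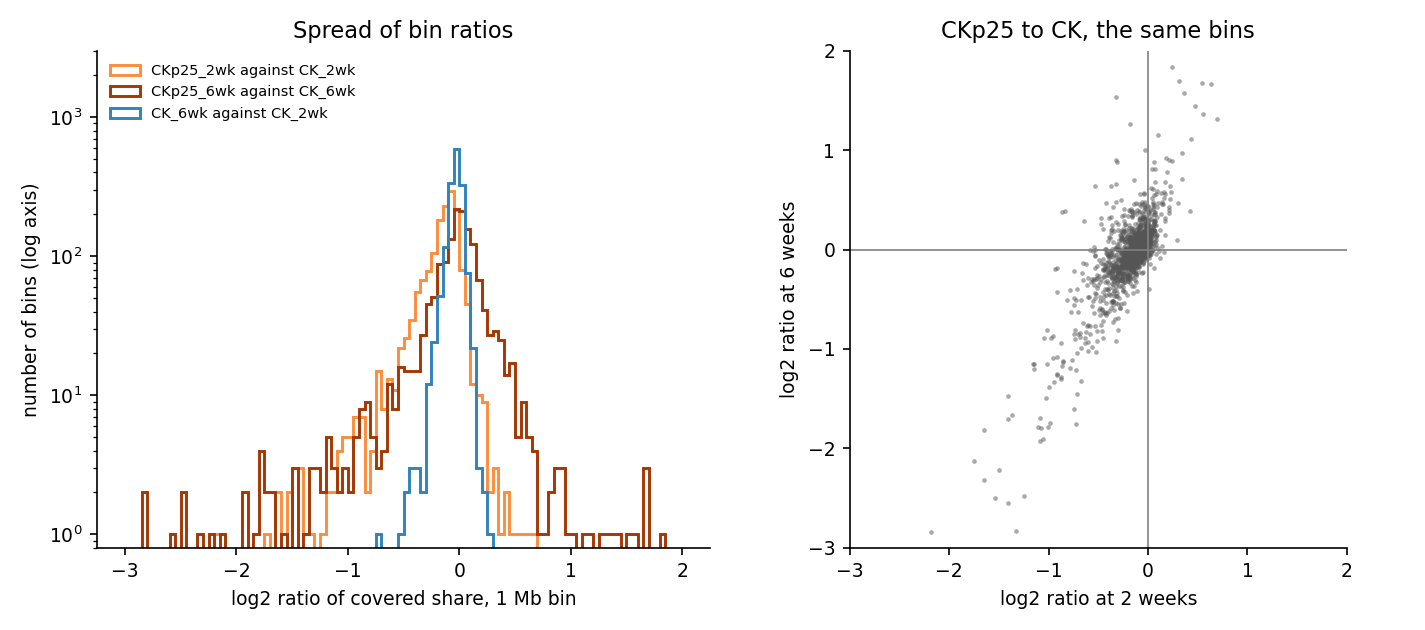
Left, distribution of the log2 ratio of H4K20me1 covered share over 1573 autosomal 1 Mb bins, with the number of bins on a log axis. Right, the CKp25 to CK ratio of each bin at 6 weeks against that at 2 weeks. The control lists (blue) have a standard deviation of 0.08, against 0.24 and 0.39 for the genotypes, and the bins follow 1 rising cloud with a Pearson correlation of 0.81.

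Single bins give the size of these shifts. The bin of largest rise at both times was chr11:119000001-120000000, covered to 44.9% in CK_2wk, 52.1% in CKp25_2wk, 43.8% in CK_6wk and 56.8% in CKp25_6wk. The largest fall at both times was in chr8:14000001-15000000, with 47.8, 31.1, 49.3 and 27.7%. In chr16:9000001-10000000 the shares were 23.3, 14.6, 24.6 and 9.77%. These bins were chosen for their change between genotypes, so the gap between CK and CKp25 in them is a description of its size. Between the controls the largest rise, in chr11:66000001-67000000, was from 7.37 to 8.84%, and the largest fall, in chr9:68000001-69000000, from 25.1 to 21.3%.

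Windows of 100 kb, a size chosen after the values were seen, show the places more sharply. The control lists also lay further apart at this size than in the larger bins above. By the limit for bins, 11.6% of 8549 windows differed between the controls, 31.1% between genotypes at 2 weeks and 34.0% at 6 weeks. With the 50000 strongest peaks these shares were 28.5, 36.5 and 43.3% of 5742 windows. The Pearson correlation of the window ratios at 2 weeks with those at 6 weeks was 0.70, and 0.47 with the 50000 strongest peaks. In chr11:119200001-119300000 the covered share was 5.33% in CK_2wk, 43.3% in CKp25_2wk, 5.12% in CK_6wk and 47.5% in CKp25_6wk. In the neighbouring chr11:119300001-119400000 it was 11.99, 49.6, 12.8 and 55.5%. In chr16:97700001-97800000 the control lists had no peak, and 20.3% and 23.6% were covered in CKp25 at 2 and 6 weeks. In chr1:52100001-52200000 the shares were 1.18, 21.3, 0.686 and 21.4%. In chr1:74000001-74100000 they were 22.0, 40.6, 26.4 and 63.7%. The windows were chosen for a rise at both times, and the controls in them ranged from no peak to a substantial share. The largest fall at both times was in chr11:35300001-35400000, with 57.8% in CK_2wk, 24.7% in CKp25_2wk, 56.0% in CK_6wk and 10.8% in CKp25_6wk. In chr1:156400001-156500000 it was 44.8, 17.0, 44.8 and 6.09%. In both of these falling windows the covered share in CKp25 was lower at 6 than at 2 weeks while both controls lay close together. The windows were chosen for a fall at both times from these same values. The order of the times in them is therefore a description and no evidence of a trend.

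Most strong peaks were shared between lists. Of the CKp25_2wk peaks with -log10 p of at least 5, 14969 (9.31%) overlapped no CK_2wk peak, and 36009 (19.1%) of the CK_2wk peaks overlapped none of CKp25_2wk. At 6 weeks the counts were 24227 (13.4%) and 30965 (16.4%). Between the control lists they were 22863 (12.1%) of CK_6wk and 24455 (13%) of CK_2wk. Control peaks missing in CKp25 were thus the more common kind at both times. At this strength the share of CKp25 peaks missing in CK lay below (2 weeks) or near (6 weeks) that between controls. Unshared peaks were short and weak. In CKp25_2wk their median width was 344 bases against 695 for shared ones, and their median -log10 p 5.68 against 8.03. With a -log10 p of at least 10, the unshared share fell to between 0.531 and 2.20% over the 6 directions. With the 50000 strongest peaks of each list the order against the controls turned. CKp25 peaks missing in CK then made up 0.528% at 2 weeks and 0.648% at 6 weeks, against 0.234 and 0.334% between controls. Control peaks missing in CKp25 made up 0.888 and 0.722%.

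Joining all lists gave a set of regions of which 98983 (37.0%) were marked in all 4 lists, and these held 234 Mb, or 76.0% of the joint length. Among regions marked in 2 lists, 12836 were in both CK lists alone and 6387 in both CKp25 lists alone. Pairs that mix genotypes gave 5319 regions at 2 weeks, 7127 at 6 weeks, 8368 for CK_2wk with CKp25_6wk and 4566 for CKp25_2wk with CK_6wk. The control pair was thus the most frequent, and the CKp25 pair lay within the range of the mixed pairs, with CKp25_2wk being the list of fewest peaks.

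Among peaks of -log10 p of at least 5, 1468 regions were marked in both CKp25 lists with no peak in either control, and 4150 in both controls with none in CKp25. Taken list by list, 4.63% of these peaks in CKp25_2wk and 7.11% in CKp25_6wk had no peak in either control list, and 9.71% in CK_2wk and 9.52% in CK_6wk had none in either CKp25 list. Most were small, with a median of 524 and 512 bases. Joined at 3 kb, the CKp25 regions reached 38875 bases and formed 10 domains of at least 10 kb, and the control regions reached 11062 bases and formed 1. The strongest CKp25 regions lay at chr11:119290881-119293602, chr11:119293888-119299423 and chr19:34718888-34723882. In the third, 96.9% was covered in CKp25_2wk and 90.3% in CKp25_6wk, against 0% in both controls. H3K36me3 covered 5.71% of it in CK_2wk, 45.2% in CKp25_2wk, 6.01% in CK_6wk and 51.3% in CKp25_6wk, and H3K4me3 0, 32.7, 0 and 38.1%. In the other two H3K4me3 was at 0% in all 4 lists. Over the 1468 regions H3K4me3 overlapped 16.1% in CKp25_2wk and 16.5% in CKp25_6wk, near the 15.6 and 16.3% of all H4K20me1 peaks of those lists. H3K36me3 overlapped 48.2 and 48.3% of the regions, against 51.6 and 49.0% of all H4K20me1 peaks of those lists. In CK_2wk and CK_6wk it overlapped 37.1 and 37.0% of the same regions.

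A pair of the strongest peaks of CKp25_2wk that CK_2wk lacks did not follow genotype. The peak at chr9:3025597-3025886, with a -log10 p of 30.2 but a fold enrichment of 3.20, was 97.6% covered in CK_6wk and uncovered in CKp25_6wk. The peak at chr9:3019096-3019376 (-log10 p of 23.5) was covered in CK_6wk and CKp25_6wk too. Peaks of other marks lay at the same places: each of the 6 other marks covered at least 95.02% of the latter in every list, and H3K27me3 and H3K9me3 covered 73.8 to 100% of the former. These places were thus called for active and repressive marks alike. The third, chr1:52178934-52184592 (-log10 p of 21.7, 5659 bases), was 5.35% covered in CK_6wk and 94.5% in CKp25_6wk.

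H4K20me1 kept company with marks of transcription and hardly met repressive ones. In CK_2wk H3K36me3, the mark of elongating transcription over gene bodies, covered 39.9% of the H4K20me1 length, 5.92 times its share of the autosomes. H3K4me1, found at enhancers and promoter flanks, covered 26.2%, H3K27ac, found at active enhancers and promoters, 17.5%, and H3K4me3, found at promoters, 11.4%. The polycomb mark H3K27me3 covered 0.551% and the heterochromatin mark H3K9me3 0.242%, which is 0.394 and 0.291 times their autosomal share. Over the 4 lists the H3K36me3 value ran from 37.9 to 42.6% and those of H3K27me3 and H3K9me3 from 0.504 to 0.845% and from 0.169 to 0.386%. By their names all lists of a group share 1 extract, so these overlaps are not independent of it. Peaks of at least 5 kb overlapped H3K4me1 in 93.6% of cases in CK_2wk and H3K4me3 in 60.9%, against 23.1 and 9.48% of peaks under 1 kb. Because 1 shared base counts, a longer peak can meet any mark more often, and no share expected from width was computed. For H3K9me3 the same shares were 2.54 and 0.631%, and for H3K27me3 1.57 and 1.48%.

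Around promoters the mark lay on both sides of the H3K4me3 summit and more on the side richer in H3K36me3. The 5000 strongest autosomal H3K4me3 peaks of CK_2wk were turned so that the side with more H3K36me3 in CK_2wk faced right, which could be done for 4906. H4K20me1 was highest 2000 to 4000 bases from the summit on that side, covering 61.2% of bases in CK_2wk, 59.6% in CKp25_2wk, 60.2% in CK_6wk and 60.3% in CKp25_6wk. Between 2 and 10 kb it covered 58.3, 56.2, 57.2 and 57.2% on that side and 20.9, 20.05, 20.4 and 21.0% on the other. H3K36me3, which set the direction in CK_2wk, was highest further out, 8000 to 16000 bases from the summit in the 4 lists. At the summit itself H4K20me1 covered 41.2, 40.5, 42.5 and 43.8%. At these strong H3K4me3 sites the 4 lists thus lay close together, with CKp25_2wk the lowest. Between 40 and 60 kb on the side richer in H3K36me3, H4K20me1 covered 31.4% in CK_2wk, 29.4% in CKp25_2wk, 30.8% in CK_6wk and 31.0% in CKp25_6wk.

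**Figure D5:**
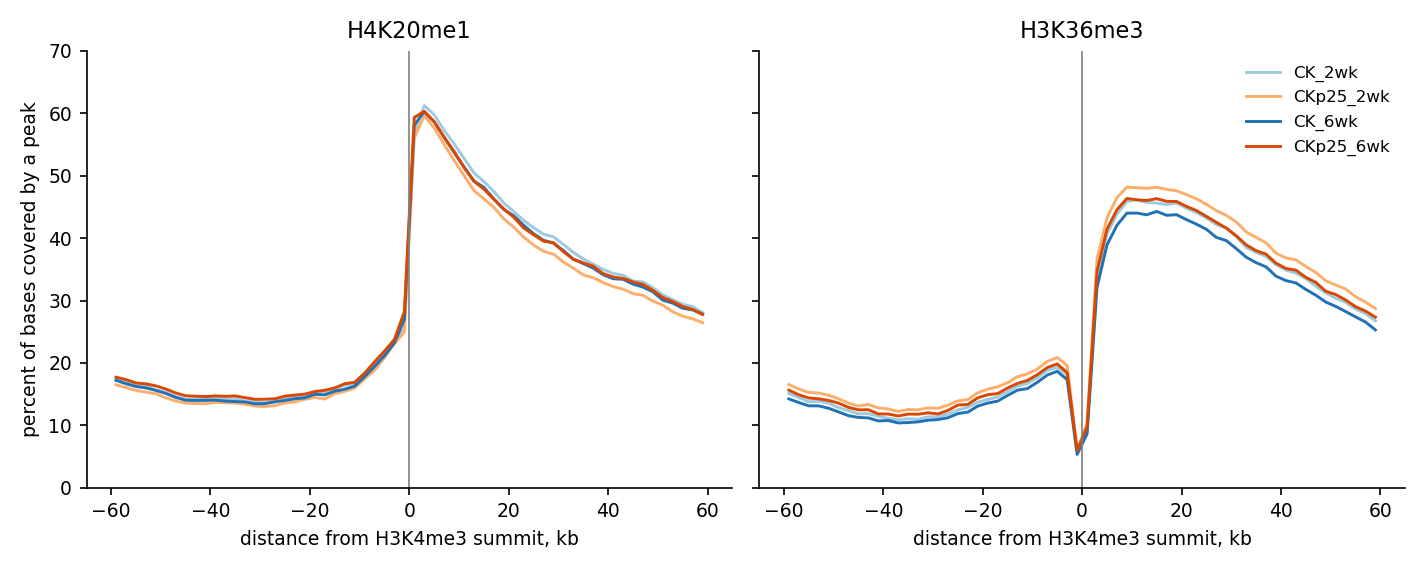
Percent of bases covered by H4K20me1 peaks (left) and H3K36me3 peaks (right) in steps of 2 kb around 4906 strong H3K4me3 summits, turned so that the side with more H3K36me3 in CK_2wk is on the right. H4K20me1 reaches 59.6 to 61.2% within 4 kb of the summit on that side. The 4 lists lie close together, with CKp25_2wk the lowest further out on that side.

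At 6 weeks the bins in which H4K20me1 shifted between genotypes tended to shift in other active marks too, and at 2 weeks less so. At 6 weeks the Pearson correlation over 1573 bins of the H4K20me1 log2 ratio with that of H3K36me3 was 0.72, with H3K4me1 0.61, with H3K27ac 0.46, with H3K4me3 0.43, with H3K27me3 -0.15 and with H3K9me3 -0.03. At 2 weeks H3K36me3, H3K4me1, H3K27ac and H3K4me3 gave 0.34, 0.39, 0.29 and 0.10. Between the control lists they were 0.07, 0.02, 0.01 and 0.12, so H3K4me3 at 2 weeks lay at the level of the controls. By their names both lists of a group share an extract, so these are descriptions. In the 132 bins where H4K20me1 was higher at 6 weeks the median H3K36me3 log2 ratio was 0.25 and in the 163 lower bins -0.29, each ratio being relative to the total of its list.

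The 100 windows of 100 kb with the largest H4K20me1 rise at both times, spread over 18 autosomes, were also richer in H3K36me3. Its median share there was 9.16% in CK_2wk, 16.9% in CKp25_2wk, 8.09% in CK_6wk and 18.8% in CKp25_6wk, and it was higher in CKp25 in 96 windows at 2 weeks and 98 at 6 weeks. Over all 8549 windows H3K36me3 was higher in 73.2% and 67.8%. H3K27ac was higher in 59 and 90 of the 100, against 38.6 and 64.8% of all, and H3K4me3 in 92 and 90, against 77.7 and 65.3%. In the 100 windows of largest fall H3K36me3 went from a median of 10.1% to 8.89% at 2 weeks and from 8.61% to 3.70% at 6 weeks, and was higher in CKp25 in 29 and 9. H3K4me1 there was higher in CKp25 in 16 and 5 of 100, against 49.5 and 50.2% of all windows. H3K4me3 did not follow at 2 weeks: its median there went from 2.32 to 3.08%, and it was higher in 75 windows at 2 weeks and 41 at 6 weeks, against 77.7 and 65.3% of all. H3K27me3 was at a median of 0% in the falling windows in every list.

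The lists come from whole hippocampus, in which fewer cells of a type and less of the mark or of RNA per cell cannot be told apart. RNA of the same groups, 12 libraries with 5029996 to 6450140 gene counts and 3 per group, gives values for cell type markers. Whether each library is a separate animal is not stated, and the p-values rest on the spread between libraries alone, which may be technical. Summed over 6 neuronal markers, CPM (counts scaled to a common library total) were 4778 to 5103 in CK and 3438 to 3817 in CKp25 at 2 weeks, and 4580 to 5031 and 2704 to 3543 at 6 weeks. Of these 6, 5 were lower in CKp25 at both times, against 7.99% of all genes tested at 2 weeks and 15.2% at 6 weeks. Gad1 was not called, with means of 233 and 220 CPM at 2 weeks and 244 and 257 at 6 weeks. For 6 microglial markers the sums were 152 to 174 and 516 to 693 at 2 weeks and 148 to 169 and 652 to 847 at 6 weeks. For 6 astrocyte markers they were 996 to 1029 and 2927 to 3180, then 977 to 1052 and 3589 to 5455. Gfap, which rises in reactive astrocytes, made up most of that rise, with means of 202 and 1737 CPM at 2 weeks and 211 and 2732 at 6 weeks, while Aldh1l1 went from 54.1 to 84.6 at 2 weeks and Gja1 was not called then. For markers of dividing cells, of which 5 of 6 passed the filter on low counts, they were 6.75 to 8.89 and 185 to 332, then 6.46 to 10.3 and 42.7 to 62.2. CK and CKp25 did not overlap in any of these 4 sums at either time. The share of all genes tested whose groups did not overlap was not counted. Oligodendrocyte markers summed to 2475 to 2777 in CK and 2492 to 3050 in CKp25 at 2 weeks, and endothelial markers to 125 to 151 and 145 to 153. Choroid plexus markers varied between libraries of each group, from 18.3 to 971 in CK_2wk and from 15.6 to 2012 in CKp25_6wk. At 6 weeks oligodendrocyte markers summed to 2699 to 3430.5 in CK and 4018 to 4903.5 in CKp25. Endothelial markers summed to 119 to 133 and 172 to 211 then, so these 2 sums did not overlap at 6 weeks either. At that time 6 of 6 oligodendrocyte and 6 of 6 endothelial markers were higher in CKp25, against 18.1% of all genes tested. None of 6 choroid plexus markers passed. The part of these cell types in the H4K20me1 differences was not tested.

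Messages of the enzymes that write H4K20 methylation did not pass the test at either time. Of 14457 genes tested with edgeR's quasi-likelihood test and Benjamini-Hochberg adjustment at 0.05, 1678 (11.6%) were higher and 1155 (7.99%) lower in CKp25 at 2 weeks, and 2614 (18.1%) higher and 2197 (15.2%) lower at 6 weeks. Kmt5a, which places the first methyl group, was at 28.3, 23.3 and 24.8 CPM in CK and 30.8, 28.2 and 33.8 in CKp25 at 2 weeks, and the groups overlapped. Its log2 fold change was 0.28 (SE 0.11, adjusted p = 0.0813 in edgeR) and at 6 weeks 0.09 (SE 0.11, adjusted p = 0.559 in edgeR). Kmt5b and Kmt5c, which add further methyl groups, had log2 fold changes of -0.07 and 0.51 at 2 weeks (edgeR adjusted p = 0.614 and 0.0816) and of -0.05 and 0.20 at 6 weeks. Without CK_2wk_4520 the adjusted p of Kmt5a at 2 weeks was 0.0444, and without CKp25_6wk_3940 that of Kmt5c was 0.0398. Of 3 enzymes that remove H4K20 methylation, none passed at 2 weeks and Kdm7a was lower at 6 weeks, from 146 ± 24.5 to 105 ± 4.86 CPM (SD, n = 3, log2 fold change -0.47, SE 0.11, edgeR adjusted p = 0.00423). Phf8, which removes the single methyl group, had log2 fold changes of -0.20 and -0.17 and did not pass (edgeR adjusted p = 0.271 and 0.293).

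Of 8 genes whose products bind methylated or unmethylated H4K20, 3 were higher and none lower at 2 weeks, and 3 were higher and 2 lower at 6 weeks. Over all genes tested, 11.6% were higher and 7.99% lower at 2 weeks, and 18.1% higher and 15.2% lower at 6 weeks. Orc1, of the origin recognition complex, had 3 counts in the CK and 45 in the CKp25 libraries at 2 weeks and 1 and 18 at 6 weeks. Tonsl, which binds unmethylated H4K20 on new chromatin, rose from 5.58 ± 0.0936 to 16.2 ± 2.77 CPM at 2 weeks and from 5.71 ± 2.59 to 10.3 ± 0.873 at 6 weeks (SD, n = 3, edgeR adjusted p = 0.000107 and 0.0106). Its 6-week call was lost without CK_6wk_3936 or CK_6wk_4009 (adjusted p = 0.0595 and 0.0560). Bard1, the partner of the repair protein Brca1, rose from 0.983 ± 0.461 to 8.48 ± 2.81 CPM and from 0.774 ± 0.0653 to 4.57 ± 1.19. L3mbtl1, which binds singly methylated H4K20 and compacts chromatin, fell at 6 weeks from 12.6, 11.1 and 8.03 CPM to 4.40, 5.64 and 4.00, with no overlap (log2 fold change -1.16, SE 0.23, edgeR adjusted p = 0.001). Trp53bp1, a repair protein that binds H4K20me2, fell from 175 ± 10.4 to 144 ± 7.69 CPM at 6 weeks (SD, n = 3, edgeR adjusted p = 0.00438).

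Condensin II, the complex that binds H4K20me1 in mitosis, had 4 of its 5 subunit genes higher at both times, with a median log2 fold change over the 5 of 1.84 at 2 weeks and 0.85 at 6 weeks, against -0.01 and 0.00 over all genes tested. The share of all genes tested that was higher was 11.6% at 2 weeks and 18.1% at 6 weeks. Smc4 went from 7.72 ± 1.01 to 40.1 ± 8.98 CPM at 2 weeks and from 8.89 ± 0.472 to 18.6 ± 0.533 at 6 weeks (SD, n = 3, edgeR adjusted p = 1.38e-08 and 0.000149). Ncapg2, found in condensin II and not in condensin I, went from 3.13 ± 0.520 to 18.9 ± 2.37 and from 3.52 ± 0.231 to 8.62 ± 1.94. Ncapd3 was higher with small changes of 0.49 and 0.34 on the log2 scale, and its 6-week call was lost without CK_6wk_3938 or CKp25_6wk_3937 (edgeR adjusted p = 0.0527 and 0.0597). Ncaph2 did not pass (0.17 and 0.13 on the log2 scale). Smc2 and Smc4 belong to condensin I as well. The summed markers of dividing cells stood at 6.75 to 8.89 CPM in CK and 185 to 332 in CKp25 at 2 weeks, and their part in these changes was not tested.

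Of 9 genes that set the level of Kmt5a protein through the cell cycle, 5 were higher at 2 weeks and 4 at 6 weeks, and none was lower. Among all genes tested, 11.6 and 18.1% were higher and 7.99 and 15.2% lower at those times. Pcna, the replication clamp to which Kmt5a is bound when it is marked for breakdown, rose from 22.7 ± 1.85 to 64.7 ± 9.70 CPM and from 21.4 ± 6.23 to 41.9 ± 4.37 (SD, n = 3, edgeR adjusted p = 2.42e-06 and 0.000301). Dtl, the ligase subunit that carries out this breakdown in S phase, rose from 2.82 ± 0.728 to 27.2 ± 8.21 and from 2.31 ± 0.300 to 9.11 ± 1.63 CPM. Cdk1, which stabilises Kmt5a in mitosis, had 2 and 188 counts in CK and CKp25 at 2 weeks and 3 and 58 at 6 weeks, and Ccnb1, its cyclin, 3 and 189 and then 5 and 32. Skp2 was higher at 2 weeks (log2 fold change 0.81, edgeR adjusted p = 0.00354) and not called at 6 weeks (0.26). Ddb1, Cul4a and Cul4b, the other parts of the ligase, and Fzr1 did not pass at either time. Ccnb1 is also on the list of markers of dividing cells. Those markers were higher in CKp25 at both times as well, and the part of such cells in the 5 called genes was not tested.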

How the data were processed

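Peak lists were deposited in narrowPeak format, 1 per mark and group. The submitters' processing notes name MACS2, Bowtie, HTSeq 0.6.1 and Picard and the builds mm9 and NCBIM37, but the sources used here give no role or setting for them. Per the labels' protocols, hippocampal chromatin was fixed in 1% formaldehyde, sheared to about 200 to 500 bp, precipitated with an antibody from Abcam, and sequenced as 36 bp single-end reads. Fold enrichment (a linear ratio) and the -log10 p of each peak are the authors' deposited values, and all -log10 p exceeded 2. They ranked and filtered peaks. Ratios between lists at a common -log10 p depend on depth, which is unknown, and were therefore repeated with the same number of top peaks from each list.

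Peaks were counted, joined and overlapped (1 base counts as shared) in Python 3.11.15 with pandas 2.3.3. The autosomal span, 2472 Mb, ends at the last peak of any list on each chromosome. The interval code was tested on simulated peaks. The RNA table, as deposited, holds whole-number read counts for 37991 Ensembl genes. The 5 rows that name no gene were left out of library sizes and tests. Of each library's rows in all, reads outside features made up 38.1 to 46.9%, reads not aligned 6.13 to 11.1%, and reads with several alignments 6.81 to 14.3%. Counts were scaled by TMM, filtered with filterByExpr and fitted for all 12 libraries with 4 group means in edgeR 4.0.16 (R 4.3.3), which was tested on simulated counts. DESeq2 1.42.0 was an alternative. Use of strand in counting is not stated, and antisense partners may share reads.

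The members and gene lists were chosen with earlier results of these data known. By the rule for naming, any tested gene of the 5 H4K20 lists could be named, and among regions the top 3 of each list or comparison by domain length, -log10 p, -log10 p without overlap, change of covered share in 1 Mb bins, or -log10 p of regions found in 1 genotype at both times. The 100 kb windows were added after the data were seen. Samples were grouped by genotype and time in the labels. Sequences were not used, because no genome of the mm9 build was used here.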

Additional observations from a re-analysis of the deposited data

Results flagged for a closer look

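The CKp25 to CK change of both core condensin genes differed between times by the test of the difference itself (edgeR's quasi-likelihood test, Benjamini-Hochberg adjusted over 14457 genes). For Smc2 the log2 fold change at 6 weeks minus that at 2 weeks was -0.99 (SE 0.20, adjusted p = 0.0396), with 47.2 ± 7.66 CPM in CKp25 at 2 weeks and 24.5 ± 1.31 at 6 weeks. For Smc4 it was -1.30 (SE 0.24, adjusted p = 0.0208), with 40.1 ± 8.98 and 18.6 ± 0.533 CPM. All 3 CKp25 libraries of 2 weeks exceeded all 3 of 6 weeks in both genes. Summed markers of dividing cells in CKp25 were 185 to 332 CPM at 2 weeks and 42.7 to 62.2 at 6 weeks, and their part in this was not tested. No peak list could be flagged, since a group holds 1 list.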

How the results depend on the processing

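No paired analysis was possible because each group has 1 H4K20me1 list and the RNA libraries of CK and CKp25 share no replicate number. Filtering on q-values could not be run, since that column holds -1 in all 4 lists. The ratio of peak numbers turned from 0.989 to 1.01 and 1.08 at 6 weeks with a -log10 p of at least 10 and 20, and between controls from 0.956 to 1.00, 1.10 and 1.28 at 5, 10 and 20. The alternatives at 10 and 20 were chosen after seeing the data. Between controls the ratio of covered length turned from 0.981 to 1.00 with the 50000 strongest peaks, and that of median domain length from 1.00 to 0.984 with gaps of 10000 bases. The share of strong peaks without overlap went from 9.31% to 16.6% at 2 weeks when at least 50% had to be covered, to 0.531% at a -log10 p of 10 and to 0.528% with the 50000 strongest. At 6 weeks it went from 13.4% to 21.2, 1.79 and 0.648%, and between controls from 12.1% to 20.3, 0.951 and 0.234%. Bins past the log2 ratio of 0.32 went from 280 to 156 at 2 weeks relative to list totals and to 515 with no minimum coverage (added after seeing the data). With no minimum they went from 292 to 539 at 6 weeks and from 10 to 126 between controls, where the 50000 strongest gave 60. The cause of these shifts was not tested. Genes called in RNA ranged from 1806 to 3056 at 2 weeks (2833 with all libraries), the lowest without CKp25_2wk_4894, and from 3501 to 5054 at 6 weeks (4811 with all) when 1 library was left out. DESeq2 called 2435 and 4043. Beside the calls given above, Phf8 at 6 weeks passed without CK_6wk_4009 (adjusted p = 0.0334), Cul4a without CKp25_6wk_3937 (0.0443) and Phf20 without CKp25_6wk_3940 (0.0363). No named gene that was called in the main or the alternative fit reversed its direction. Sign changes of genes called in neither were not counted. The depth of the ChIP libraries is unknown, and a single list per group gives no replicate error.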
